A study of Mus musculus with 5 samples.

Results

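The genes encoding the proteins of the cytosolic ribosome were followed in hepatocytes of regenerating and of young mouse liver. Members were all gene symbols of the count tables that match Rpl or Rps followed by a digit, together with Rplp0, Rplp1, Rplp2 and Rpsa. Symbols containing "-ps", which mark pseudogenes, and the Rps6k kinases were left out. This gave 86 of 31053 genes, of which 49 encode proteins of the large subunit or paralogs of them, 33 proteins of the small subunit or their paralogs, and 3 (Rplp0, Rplp1 and Rplp2) the proteins of the stalk. The remaining member, Rps19bp1, is in by its symbol and is not a ribosomal protein.

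Liver cells of C57BL/6J mice were obtained by perfusion in 2 steps, depleted of dead cells with a kit and profiled with the 10x v3 droplet kit, which counts unique molecular identifiers (UMIs), 1 per captured transcript. There were 5 libraries with 1 library in each group: normal mice at postnatal day 14 (P14), adult mice labelled as controls, and adult mice 24 h, 48 h or 96 h after partial hepatectomy (PHx), in which most of the liver is cut away and the remainder regrows. Surgery was done at 8 weeks of age. The labels give no genetic change in any group, and neither the number nor the sex of the animals. The treatment text counts the control library among the operated animals while its title, source and age call it a control, and it was used as the control. The descriptions close with a code, 1 in 4 libraries and 2 in that of the control alone, and the effect of what this code marks cannot be told apart from that of being the control.

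A cytosolic ribosome is built from a large and a small subunit, each made of ribosomal RNA and one copy of almost every ribosomal protein, whereas the acidic stalk that recruits elongation factors carries several copies of Rplp1 and Rplp2. The mRNAs of ribosomal proteins begin with a terminal oligopyrimidine tract, a C followed by a run of C and T (U in the RNA), through which mTOR and the RNA-binding protein Larp1 control how strongly they are translated. Making ribosomes is a large part of the biosynthetic work of a growing cell, and hepatocytes that regrow the liver after resection enlarge and divide.

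The tract shows in the promoters of some members. RefSeq windows of 300 bases (250 before the annotated start and 50 from it, build GRCm38.p6, the assembly also called mm10, which the submitters' processing notes name) were found for 66 of the 86 members, in 78 windows. At the annotated start base, 14 of the 78 windows, or 17.9%, had a C followed by at least 4 bases that were C or T, against 2.51% of the 32851 windows of all genes. When the run could begin up to 5 bases on either side of the start, the shares were 41.0% and 18.3%. The sequences below run from 40 bases before the annotated start to 20 bases from it, 5′ to 3′, and capitals mark the longest pyrimidine run of 5 or more bases that begins with C within 5 bases of the start. The first 6 show the tract and are the members with the longest runs counted from the start base, members of the next set aside: Rpl15 (chr14:18270967-18271026, minus strand), Rps10 (chr17:27635225-27635284, minus strand), Rps18 (chr17:33955646-33955705, minus strand), Rps6 (chr4:86857348-86857407, minus strand), Rpl28 (chr7:4792925-4792984, plus strand) and Rpl35a (chr16:33056442-33056501, plus strand).
Rpl15: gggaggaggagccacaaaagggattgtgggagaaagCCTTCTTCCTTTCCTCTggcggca
Rps10: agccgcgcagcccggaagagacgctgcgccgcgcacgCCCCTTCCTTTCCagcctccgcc
Rps18: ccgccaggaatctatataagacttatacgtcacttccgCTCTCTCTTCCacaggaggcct
Rps6: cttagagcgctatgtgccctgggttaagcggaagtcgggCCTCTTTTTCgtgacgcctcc
Rpl28: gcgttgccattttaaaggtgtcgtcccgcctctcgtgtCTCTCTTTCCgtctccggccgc
Rpl35a: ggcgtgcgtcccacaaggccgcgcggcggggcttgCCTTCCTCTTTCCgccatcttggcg

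The next 8 are shown to set the tract beside the response and belong to members at the upper and lower ends of the 24 h comparison described further on. The upper end is shown by Rpl41 (chr10:128549149-128549208, minus strand), Rpl22l1 (chr3:28805468-28805527, plus strand), Rpl35 (chr2:39005112-39005171, minus strand) and Rps28 (chr17:33824543-33824602, minus strand). The lower end is shown by Rps3 (chr7:99483690-99483749, minus strand), Rps3a1 (chr3:86142649-86142708, minus strand), Rps4x (chrX:102189372-102189431, minus strand) and Rpl5 (chr5:107900488-107900547, plus strand).
Rpl41: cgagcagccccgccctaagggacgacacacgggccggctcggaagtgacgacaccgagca
Rpl22l1: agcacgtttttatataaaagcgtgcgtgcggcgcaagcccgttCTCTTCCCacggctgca
Rpl35: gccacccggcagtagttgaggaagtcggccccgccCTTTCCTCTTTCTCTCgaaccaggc
Rps28: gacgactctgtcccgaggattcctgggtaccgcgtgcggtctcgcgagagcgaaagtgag
Rps3: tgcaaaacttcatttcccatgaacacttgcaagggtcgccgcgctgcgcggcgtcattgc
Rps3a1: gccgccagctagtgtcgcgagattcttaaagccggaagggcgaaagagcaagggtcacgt
Rps4x: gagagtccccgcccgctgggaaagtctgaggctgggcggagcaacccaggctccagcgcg
Rpl5: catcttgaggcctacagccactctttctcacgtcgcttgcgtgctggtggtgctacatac

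Rpl22l1 and Rpl35 had a run at the upper end, and none of the 4 sequences of the lower end had one within 5 bases of the annotated start. Annotated starts can be off by some bases, so a window without the run says only that these letters were not at that place. The 14 members with the run at the start had a median coding length of 379.5 nt and median log2 ratios to the adult control of -0.03 at 24 h and 0.27 at 48 h, and the 49 tested members with a window and no such run had 453 nt, 0.00 and 0.36. With the run allowed within 5 bases the 24 h medians were -0.02 (30 members) and 0.00 (33 members), so the difference between the ends shown above was not present over the members. In the whole window 3 motifs were searched on both strands, each on its own, with no regard to overlap between their matches. The letters CCGGAAG, the core of sites of ETS factors, were in 34.6% of member windows and 8.86% of all windows. GATGGC, found in sites of YY1, was in 23.1% and 14.1%, and TATAAA, the TATA box, in 8.97% and 13.6%.

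Hepatocytes were barcodes with at least 5000 UMIs, 10 to 30% of them from the 13 mitochondrial genes and at least 1% from Alb, Apoa1 and Ttr. This gave 925 cells in the adult control, 1170 (24 h), 719 (48 h), 771 (96 h) and 2106 (P14), with 17750324 to 80868122 UMIs per library and median depths of 18527 to 38922.5 UMIs. Of 8 other hepatocyte markers, 7 were in the tables (Tf was not found under that symbol) and each was at 229.5 CPM (counts per 1000000 non-mitochondrial UMIs) or more in all 5 libraries. Marker lists of T or NK cells, B cells, macrophages and endothelial cells summed to 2 to 16 CPM, and that of mesenchymal cells to 4 to 46 CPM, mostly Reln. Neutrophil markers summed to 11 CPM in the adult control, 101 (24 h), 190 (48 h), 21 (96 h) and 27 (P14), erythroid markers to 124 CPM at P14 and 325 to 762 in the adults, and Spp1 gave most of the cholangiocyte list at 96 h (155.9 of 188 CPM) while Krt19 and Epcam were at 0. Between libraries, 3 hepatocyte barcodes were shared, all with P14.

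Ribosomal protein transcripts made up the largest share of hepatocyte UMIs 48 h after hepatectomy, except when barcodes with under 10% mitochondrial UMIs were let into the gate, where 96 h had 9.49% and 48 h 9.12% of non-mitochondrial UMIs. Members held 6.45% of non-mitochondrial UMIs in the adult control, 7.19% (24 h), 8.56% (48 h), 7.05% (96 h) and 6.01% (P14). Exact Clopper-Pearson 95% intervals, which cover counting error only, were 6.43 to 6.46% in the control, 8.55 to 8.58% at 48 h and 7.04 to 7.07% at 96 h, and those of the 5 libraries did not overlap. With 1 library per group the spread between animals is unknown, and no difference between libraries could be tested. Of all UMIs, mitochondrial ones included, the share was 4.84, 5.54, 6.59, 5.28 and 4.80% in the same order. The median hepatocyte had 834 UMIs from members in the adult control, 958.5 (24 h), 2172 (48 h), 1066 (96 h) and 1821.5 (P14), at unequal depth.

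**Figure D1:**
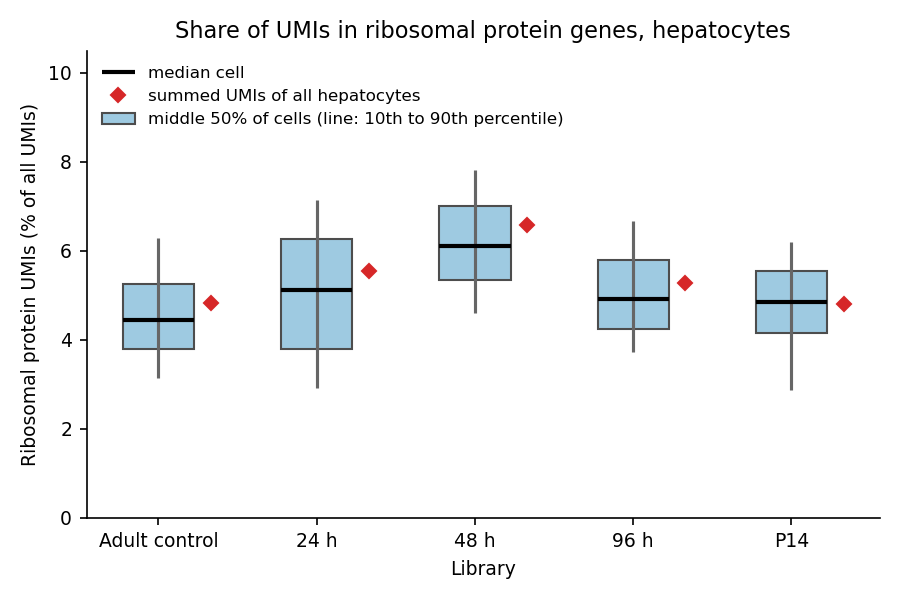
Share of all UMIs that came from ribosomal protein genes in hepatocytes of each library (y axis, percent). Boxes hold the middle 50% of cells, vertical lines run from the 10th to the 90th percentile, black bars are the median cell and red diamonds the summed UMIs of all hepatocytes. The 48 h library has the highest median (6.12%) and the 24 h and P14 libraries have the longest lower ends.

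Cells within a library differed more than the libraries did. The middle cell had 4.46% of its UMIs in members in the adult control, 5.13% (24 h), 6.12% (48 h), 4.92% (96 h) and 4.85% (P14), and the 10th to 90th percentiles at 24 h ran from 2.91 to 7.15%. Cells under 3% were 8.11% of the adult control, 11.97% (24 h), 0.417% (48 h), 2.59% (96 h) and 11.1% (P14). The plot of the share per cell shows these ranges overlapping between all libraries.

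The share moved with the depth of a cell and with its mitochondrial fraction. Across cells of a library, Spearman's rho of the share with the UMI count was 0.54, 0.57, 0.67, 0.52 and 0.29 in the adult control, at 24 h, 48 h, 96 h and at P14, and with the mitochondrial percentage -0.41, -0.40, -0.63, -0.42 and -0.55. These are descriptions over 719 to 2106 cells that share a library, and the share and both other quantities are computed from the same UMIs. When the cells of each library were cut into 3 equal groups by depth, the shallowest cells had 5.11, 5.38, 7.25, 6.04 and 5.68% of non-mitochondrial UMIs in members and the deepest 7.01, 7.92, 9.15, 7.65 and 6.35%. The 48 h library was highest in each of the 3 groups, which were cut within libraries and are not matched in depth (the shallowest had a median of 19385 UMIs at 48 h and 10187.5 in the control). It was also highest within each of 4 mitochondrial classes, with 9.39% against 6.26 to 8.73% elsewhere at 10 to 15% mitochondrial UMIs (11 cells at 48 h) and 7.76% against 4.79 to 6.74% at 25 to 30%.

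Dividing cells carried a slightly larger share. Cells were called mitotic or replicating when at least 3 genes of a list had a UMI after each cell was thinned to 5000 UMIs. At 24 h mitotic cells (138) had 8.18%, replicating cells (524) 7.44% and cells low for both (417) 6.85% of non-mitochondrial UMIs in members. At 48 h the same classes had 8.79, 8.60 and 8.11%, at 96 h 8.35, 7.60 and 6.69%, and at P14 6.86, 6.43 and 5.81%. In the adult control 4 cells were mitotic and 7 replicating, and the 865 cells low for both had 6.42%. Cells low for both were thus also highest at 48 h. Median depth of mitotic cells and of cells low for both was 25290.5 and 19636 UMIs at 24 h, 41702.5 and 32197 at 48 h and 28600 and 21310.5 at 96 h. At P14 it was 37359 and 39593, so there the mitotic cells had the larger share at a lower depth.

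Position along the lobule, read from Cyp2f2 (periportal) and Cyp2e1 (pericentral), went with the share. In the adult control the most pericentral of 3 equal groups of cells had 7.48% and the most periportal 5.82%. The pair was 7.53 and 6.73% at 24 h, 8.75 and 8.16% at 48 h, 8.05 and 6.19% at 96 h, and 6.12 and 5.89% at P14. The pericentral group had a larger share than the periportal group in all 5 libraries, while at 48 h the middle group had 8.75% as well. The median mitochondrial percentage was lower on the pericentral side in all 5, with 23.9 against 26.5% in the control and 23.8 against 25.5% at 48 h, and its part was not tested. Median depth in the adult control was 19322.5 UMIs in the pericentral and 19850 in the periportal group, whereas at 96 h, where the gap was widest, it was 26467 and 20187, and the part of depth was not tested.

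The levels of single members were compared as log2 ratios of CPM + 1, in genes with at least 5 CPM in either library, and a ratio past 1.5-fold was counted. In each comparison 83 members passed this filter, and 3 (Rpl3l, Rpl10l and Rpl39l) stayed under 5 CPM in every library. CPM is relative to the other transcripts of the cell, so a change in the total RNA of a hepatocyte is not visible in it. Where levels of different genes stand side by side, as in rankings and paralog pairs, they are UMI counts with no correction for capture differences between genes. Ribosomal protein genes also have many near-identical pseudogene copies, and how reads that match several copies were counted is not given in the sources used here. The 9 listed pseudogene symbols held 915 to 4652 UMIs per library, against 858673 to 3883845 in the members.

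By UMI count alone, the members with most counts in adult control hepatocytes were Rpl41, Rps2, Rpl23, Rplp1 and Rps29. In that library 21 members had 1000 CPM or more, and 56 had 500 or more. Most members had their highest level at 48 h, an order that turned for the median member with the wider mitochondrial gate (log2 ratio of 96 h over 48 h 0.19). With the main gate 58 of 83 were highest at 48 h, 9 at P14, 6 at 96 h, 3 at 24 h and 7 in that of the control. The lowest level fell at P14 in 34 members, at 24 h in 30 and in the adult control in 19, and in none at 48 h or 96 h.

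At 48 h, 74 of 83 members were above the adult control, with a median log2 ratio of 0.33 where all 9035 genes tested had -0.08. At least 1.5-fold higher were 22 members (26.5%, against 17.4% of all genes tested), and none was 1.5-fold lower (19.6% of all genes). The largest ratios were those of Rpl35, a protein at the exit of the peptide tunnel, with 391.9 CPM in the adult control and 841.5 at 48 h (log2 ratio 1.10), and Rpl41, the smallest ribosomal protein, with 3117 and 6108 CPM (0.97). Rplp2 of the stalk followed with 662.0 and 1262 CPM (0.93), then the small subunit proteins Rps28 with 596.2 and 1125 CPM (0.92) and Rps29 with 1494 and 2767 CPM (0.89). Low values at the other end, among members with at least 50 CPM in either library, a minimum that holds for all named extremes, included Rps2 (1805 and 1595 CPM, -0.18), Rpl23 (1650 and 1462 CPM, -0.17), Rplp0 (882.6 and 797.7 CPM, -0.15) and Rps3a1 (839.4 and 777.0 CPM, -0.11). The subunits were alike: summed CPM at 48 h was 1.32 times the control for both the large and the small subunit, and 1.42 times for the 3 stalk proteins.

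At 24 h the members lay on both sides of the control. Of 83 members, 43 were above the adult control and 40 below it, and the median log2 ratio of 0.04 (all 9028 genes: -0.00) was below 0 after free RNA was subtracted (-0.02) and with every cell weighted equally (-0.01). At least 1.5-fold higher were 13 members (15.7%, against 19.0% of all genes) and 4 were at least 1.5-fold lower (4.82%, against 17.4%). The standard deviation of the log2 ratios was 0.44 over the members and 0.86 over all genes. With barcodes of under 10% mitochondrial UMIs let in, the members' median was 0.23 and that of all genes -0.07. In that setting 21 members were 1.5-fold higher (17.5% of all genes) and none 1.5-fold lower (20.7%), and Rps3 had -0.28. The highest ratios with the main gate were those of Rpl41 (3117 CPM in the control and 5884 at 24 h, 0.92), Rpl22l1 (309.5 and 577.4 CPM, 0.90), Rpl35 (391.9 and 700.1 CPM, 0.84), Rps29 (1494 and 2607 CPM, 0.80) and Rps28 (596.2 and 1010 CPM, 0.76). The lowest were those of Rps3, which lines the entry of the mRNA channel (459.1 and 283.2 CPM, -0.70), Rps3a1 (839.4 and 521.2 CPM, -0.69), Rpl7 (548.7 and 353.4 CPM, -0.63), Rps4x (773.5 and 509.0 CPM, -0.60) and Rpl5, which carries 5S ribosomal RNA into the large subunit (390.8 and 260.8 CPM, -0.58). Both subunits had members at both ends.

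Which members were high and which low at 24 h went with the length of the protein they encode. Coding length was taken from GENCODE M21 and runs from 138 nt (Rpl41) to 1257 nt (Rpl4), with a median of 454.5 nt. The length classes used here were set after the pattern had been seen. The 19 tested members with up to 350 nt had a median log2 ratio of 0.57 at 24 h and 17 of them were above the control, and the 15 members of over 700 nt had -0.47 with 2 above it. Between them, the 31 members of 351 to 500 nt had 0.19 and the 18 members of 501 to 700 nt had -0.17. Spearman's rho of the ratio with coding length over the 83 members was -0.75, a description across genes, which are not independent replicates and share both libraries.

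**Figure D2:**
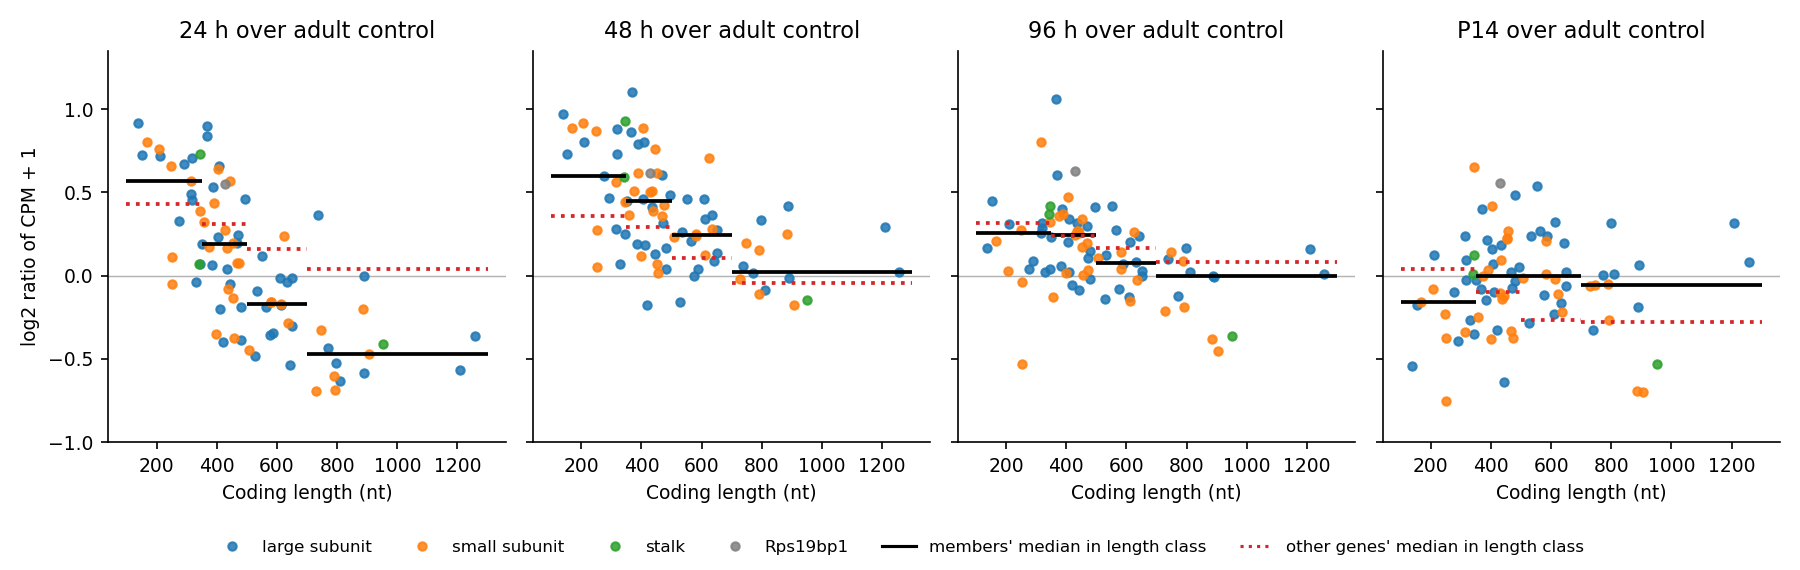
Log2 ratio of CPM + 1 to the adult control (y axis) against coding length in nt (x axis) for the 83 tested members at 24 h, 48 h, 96 h and P14; points are genes, coloured by subunit. Black bars are the members' medians in 4 length classes and red dotted bars the medians of all other tested genes of those lengths. At 24 h the members' medians fall from 0.57 to -0.47 with length, and at P14 they stay between -0.16 and -0.00.

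Other genes showed a weaker relation in the same direction. At 24 h the other genes of up to 350 nt had a median of 0.43 (306 genes), those of 351 to 500 nt 0.31, those of 501 to 700 nt 0.16, those of 701 to 1300 nt 0.04 and longer ones -0.10, and rho over all 8798 was -0.17. Long members thus stood further below the other genes of their length (-0.47 against 0.04) than short members stood above theirs (0.57 against 0.43). At 48 h the members' medians over the 4 classes were 0.60, 0.45, 0.24 and 0.02 (rho -0.60), and those of other genes of these lengths 0.36, 0.29, 0.10 and -0.04. At 96 h rho for the members was -0.44, with class medians from 0.25 to -0.00, but -0.16 at 10 to 20% mitochondrial UMIs and -0.10 with the gate widened to all cells under 30%. At P14 it was 0.10. With total transcript length in place of coding length the members' rho at 24 h was -0.46.

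Summed over members, the balance of short and long genes shifted with time after surgery. The 20 members of up to 350 nt held 30.7% of member UMIs in the adult control, 40.4% (24 h), 36.6% (48 h), 32.7% (96 h) and 29.3% (P14). The 16 members of over 700 nt held 15.2, 10.1, 11.9, 12.5 and 13.8%. Their ratio was 2.02 in the adult control, 4.00 (24 h), 3.08 (48 h), 2.61 (96 h) and 2.12 (P14), so 24 h stood furthest from the control and P14 nearest to it.

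Some members left the pattern, and these were chosen after their values were seen. Rps27 (252 nt) had 932.0 CPM in the control, 1007 (24 h) and 1126 (48 h) with log2 ratios of 0.11 and 0.27, and Rpl35a (330 nt) had 1280, 1245 and 1346 CPM with -0.04 and 0.07. Rpl7l1 (738 nt), a paralog of Rpl7, had 66.5 CPM in the control and 85.9 at 24 h (0.36), while Rpl7 (810 nt) had -0.63.

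From 24 h to 48 h nearly all members were higher, and long members most. In the 48 h library 78 of 83 were above the 24 h library, with a median log2 ratio of 0.30 against -0.07 for all 8817 genes tested. At least 1.5-fold higher were 6 members (7.23%, against 5.13% of all genes) and none was 1.5-fold lower (7.01% of all genes). The count higher was 1 (5.05% of all genes) and the median 0.15 with the wider mitochondrial gate. After free RNA was subtracted they were 13 (5.44% of all genes) and 0.38. The highest were Rpl7a (275.5 CPM at 24 h and 500.9 at 48 h, 0.86), Rpl3, a core protein next to the peptidyl transferase centre (268.7 and 487.7 CPM, 0.86), Rps4x (509.0 and 862.2 CPM, 0.76), Rps10 (556.3 and 892.4 CPM, 0.68) and Rps3 (283.2 and 452.5 CPM, 0.67). The 5 members below their 24 h level were Rpl7l1 (85.9 and 69.3 CPM, -0.31), Rpl36 (1424 and 1231 CPM, -0.21), Rpl37 (1986 and 1724 CPM, -0.20), Rpl22l1 (577.4 and 564.2 CPM, -0.03) and Rps27l (930.6 and 926.7 CPM, -0.01). The rho with coding length was 0.70 for members and -0.06 for other genes. This comparison does not use the adult control.

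From 48 h to 96 h most members were lower, and short members most. At 96 h 70 of 83 were below the 48 h library, with a median log2 ratio of -0.21 against 0.11 for all 8966 genes, but when barcodes with under 10% mitochondrial UMIs were let into the gate the median was 0.19. None was 1.5-fold higher (13.9% of all genes) and 6 (7.23%) were 1.5-fold lower (8.35% of all genes). The lowest were Rps28 (1125 CPM at 48 h and 608.5 at 96 h, -0.89), Rpl41 (6108 and 3503 CPM, -0.80), Rps29 (2767 and 1727 CPM, -0.68), Rpsa (1313 and 847.5 CPM, -0.63) and Rps21 (2041 and 1353 CPM, -0.59). The highest were Rps27l (926.7 and 1096 CPM, 0.24), Rpl22l1 (564.2 and 646.7 CPM, 0.20), Rpl10 (780.3 and 865.9 CPM, 0.15), Rpl23 (1462 and 1588 CPM, 0.12) and Rpl7 (517.1 and 557.3 CPM, 0.11).

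At 96 h, 63 of 83 members were still above the adult control, by a median log2 ratio of 0.14 against 0.04 for all 8890 genes. At least 1.5-fold higher were 4 members (4.82%, against 12.3% of all genes) and none was 1.5-fold lower (6.92% of all genes). The 4 were Rpl22l1 (309.5 CPM in the control and 646.7 at 96 h, 1.06), Rps27l (627.3 and 1096 CPM, 0.80), Rps19bp1 (20.95 and 32.9 CPM, 0.63) and Rpl35 (391.9 and 596.0 CPM, 0.60). Rpl39, which lines the peptide tunnel, had 1199.5 and 1635 CPM (0.45). At the lower end were Rps2 (1805 and 1318 CPM, -0.45), Rpsa (1105 and 847.5 CPM, -0.38), Rplp0 (882.6 and 685.3 CPM, -0.36), Rps3 (459.1 and 396.1 CPM, -0.21) and Rps3a1 (839.4 and 737.4 CPM, -0.19). With the wider mitochondrial gate the median was 0.52 (all genes: -0.12) and 32 members were 1.5-fold higher (14.9% of all genes). These 5 lowest members were then above the control: Rps2 by 0.34, Rpsa by 0.06, Rplp0 by 0.32, Rps3 by 0.45 and Rps3a1 by 0.33. That gate took 96 h from 771 to 1455 barcodes, 639 of them under 5% mitochondrial UMIs. The control went from 925 to 1075, with 144 under 5%. The part of this unequal mixture was not tested.

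Hepatocytes of P14 liver, which still grow, had about the control's level. The median log2 ratio was -0.03 against -0.26 for all 9011 genes tested, and it was above 0 with CPM over all UMIs (0.06), with TMM scaling (0.31) and with cells weighted equally (0.02). TMM scaling, which adjusts for genes that take up much of a library, moved the median of all genes at P14 by 0.34, and the members' median stood 0.23 above that of all genes with either scaling, but with no filter on low values the difference was -0.00427. At least 1.5-fold higher was 1 member (1.20%, against 14.3% of all genes) and 4 (4.82%) were at least 1.5-fold lower (31.2% of all genes). With TMM scaling these counts were 11 and 0, beside 24.8 and 16.2% of all genes. The 1 member was Rps26, which contacts the mRNA at its exit, with 379.4 CPM in the control and 597.2 at P14 (0.65). Other high values were those of Rpl17 (484.6 and 703.1 CPM, 0.54), Rpl21 (465.5 and 652.5 CPM, 0.49) and Rpl35 (391.9 and 518.1 CPM, 0.40). The lowest were Rps2 (1805 and 1110 CPM, -0.70), Rpsa (1105 and 682.3 CPM, -0.70), Rpl27a (1450 and 929.9 CPM, -0.64), Rpl41 (3117 and 2140 CPM, -0.54) and Rplp0 (882.6 and 610.4 CPM, -0.53). Rps27rt, which had under 50 CPM in both libraries, was the other member past 1.5-fold lower (40.9 and 23.9 CPM, -0.75).

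The stalk and Rpsa did not move as one. Rplp0, the stalk's base, had 882.6 CPM in the adult control, 663.0 (24 h), 797.7 (48 h), 685.3 (96 h) and 610.4 (P14), and was highest in the control with this gate, while with the wider mitochondrial gate its log2 ratio to the control was 0.02 at 48 h and 0.32 at 96 h. Rplp1 had 1577, 1656, 2380, 2041 and 1591 CPM and Rplp2 662.0, 1097, 1262, 884.8 and 721.4 CPM in the same order, both highest at 48 h. Rpsa, a small subunit protein also known as the laminin receptor, had 1105, 963.7, 1313, 847.5 and 682.3 CPM. Rplp0 (951 nt) and Rpsa (885 nt) are long members, and Rplp1 (342 nt) and Rplp2 (345 nt) short ones.

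A few members exist as pairs of closely related genes. Rpl22l1 is the paralog of Rpl22 and can stand in for it in the large subunit. The gene (ENSMUSG00000039221) lies at chr3:28805436-28807424 on the plus strand. It had 309.5 CPM in the adult control, 577.4 (24 h), 564.2 (48 h), 646.7 (96 h) and 293.1 (P14), while Rpl22 had 456.5, 476.8, 521.0, 474.8 and 412.0. Rpl22l1 gave 40.4% of the pair's UMIs in the control, 54.8% (24 h), 52.0% (48 h), 57.7% (96 h) and 41.6% (P14), and the 3 regenerating libraries lay above the other 2. Its log2 ratio at 96 h ran from 0.99 to 1.36 over all settings tried.

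Rps27l is the paralog of Rps27 and is known as a target of p53. The gene (ENSMUSG00000036781) lies at chr9:66946086-66949516 on the plus strand. It had 627.3 CPM in the control, 930.6 (24 h), 926.7 (48 h), 1096 (96 h) and 496.4 (P14), against 932.0, 1007, 1126, 906.7 and 719.4 for Rps27. Its share of the pair was 40.2, 48.0, 45.1, 54.7 and 40.8%. At 96 h, when most members were below their 48 h level, Rps27l and Rpl22l1 stood furthest above it (0.24 and 0.20), but with the wider mitochondrial gate Rpl7 (0.47) stood above Rpl22l1 (0.45) and Rps27l (0.37). Among cells low for both mitosis and replication genes, as defined above, Rpl22l1 was at 304.9 CPM in the control, 532.3 (24 h), 562.1 (48 h), 623.7 (96 h) and 280.1 (P14). Rps27l was at 620.0, 911.3, 908.7, 1031 and 488.2 CPM in these cells. Mitotic cells had higher levels of both genes, with the smallest gap in Rpl22l1 at 48 h. In them Rpl22l1 was at 726.1 (24 h), 567.3 (48 h), 741.9 (96 h) and 352.3 CPM (P14), and Rps27l at 974.3, 935.4, 1300 and 515.5 CPM.

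**Figure D3:**
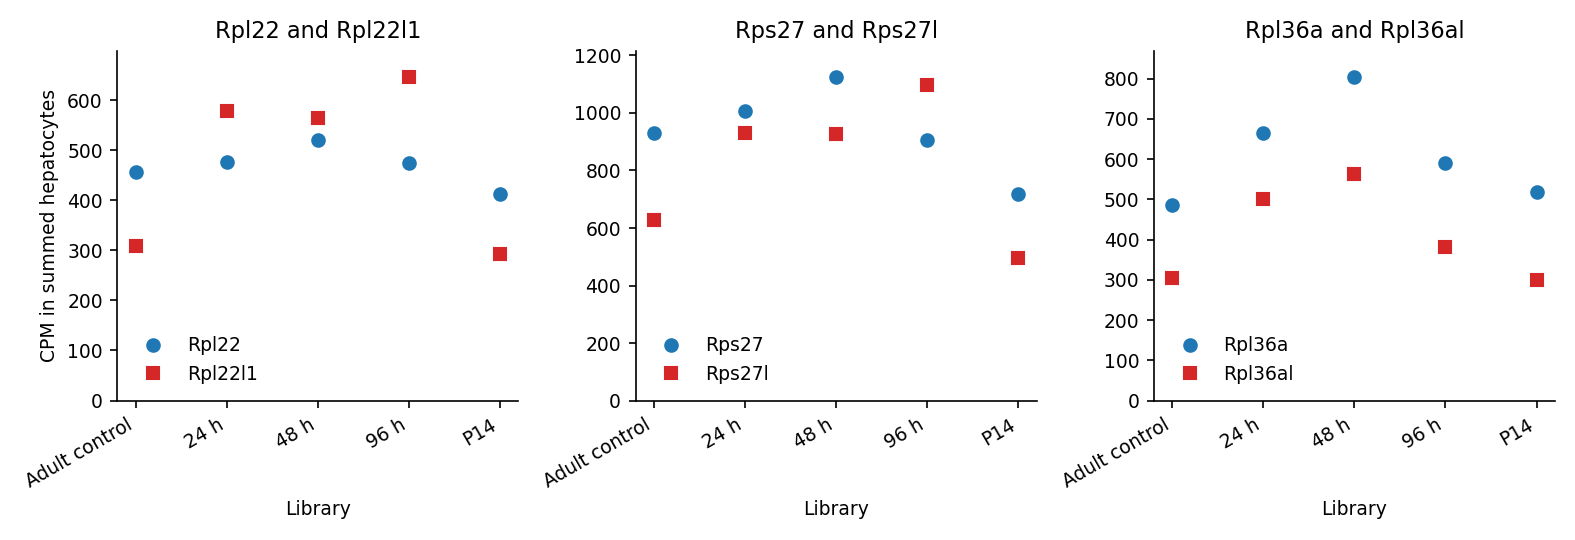
CPM in summed hepatocytes (y axis, starting at 0) in each library for 3 pairs of related members. Rpl22l1 and Rps27l have their highest level at 96 h, whereas Rpl22, Rps27, Rpl36a and Rpl36al have theirs at 48 h.

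The levels of Rpl22l1 and Rps27l outside hepatocytes are given because free RNA of a library reaches every droplet. In empty droplets Rpl22l1 had 217 CPM in the control, then 867 (24 h), 678 (48 h) and 884 (96 h), and Rps27l 661, 1313, 1121 and 1549 CPM. In barcodes with T or NK cell markers Rpl22l1 had 673 CPM in the control and 1211, 1107 and 1244 in the regenerating libraries, and Rps27l 299, 435, 286 and 409 CPM. At P14 Rpl22l1 and Rps27l had 503 and 887 CPM in empty droplets and 857 and 370 CPM in T or NK barcodes. These P14 levels were above the control, whereas in hepatocytes P14 was below it. In B barcodes Rps27l had 326 CPM in the control (265 UMIs), 579 (24 h), 311 (48 h, 376 UMIs), 507 (96 h) and 597 (P14). Its 48 h level was slightly below the control in T or NK and in B barcodes, and counting error was not computed for these values. The part of free RNA or of the library itself in these ratios was not tested. After free RNA was subtracted both genes kept log2 ratios above 0 at 24 h, 48 h and 96 h, since their lowest value over all settings in those libraries was 0.55. The subtraction took only the mean content of an empty droplet from each cell.

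In 2 further pairs the share of the paralog was also above the control and P14 in all 3 regenerating libraries, though the counting intervals overlapped those of the control at 96 h for both and at 48 h for Rpl7l1. Rpl36al gave 38.7% of the UMIs of itself and Rpl36a in the control, 42.9% (24 h), 41.2% (48 h), 39.2% (96 h) and 36.7% (P14). Rpl7l1 gave 10.8, 19.5, 11.8, 11.3 and 8.7% of its pair with Rpl7, with the high value at 24 h, when Rpl7 was low. Rps27rt, a retrotransposed copy of Rps27, had 40.9, 39.5, 42.4, 28.0 and 23.9 CPM and at most 4.2% of its pair. Counts of such near-identical copies are uncertain.

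Rpl3l, the paralog of Rpl3 that is known from heart and skeletal muscle, was found in hepatocytes almost only at 48 h. The gene (ENSMUSG00000002500) lies at chr17:24727820-24736143 on the plus strand, and the member Rps2 lies before it on the same strand at chr17:24718116-24721929. Its UMIs numbered 4 in the adult control, 0 (24 h), 99 (48 h), 1 (96 h) and 5 (P14). At 48 h this was 4.75 CPM, 15.8 times the control (exact 95% interval from the counts 5.99 to 59.2). Against the 24 h library, at 0, it was at least 24.7-fold higher by the exact lower 95% limit. With a floor of 3 counts in that library the ratio was 30.9. The ratio to P14 was 61.4 (25.4 to 193.2). These intervals cover counting error in 1 library each.

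The 99 UMIs came from 56 of 719 hepatocytes, or 7.79% (5.94 to 10.0%), with up to 9 in a cell. Among mitotic cells 39 of 284 (13.7%) had one, among replicating cells 30 of 193 (15.5%) and among cells low for both 3 of 205 (1.46%). Cells low for both had no mitosis gene and at most 1 replication gene, and cells in between are left out. The classes overlap, and deeper cells have more chances of a UMI: cells with Rpl3l had a median of 46878 UMIs and those without 35073. Glul, the pericentral glutamine synthetase, was at 395.5 CPM in cells with Rpl3l and 131.4 in those without, a comparison made after seeing the values. With barcodes carrying markers of other cell types left out, the level was 4.73 CPM from 64 UMIs.

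Rpl3l was also present in other barcodes of the 48 h library. It had no UMI in 396 barcodes with T or NK markers, which by 3 counts allows up to 0.758% of barcodes with a UMI and sets no limit on expression, nor in 288 with B cell markers, at median depths of 5953 and 3617 UMIs. It was found in 17 of 120 barcodes with neutrophil markers (14.2%, 8.47 to 21.7%, median depth 9066 UMIs), and at 24 h in 8 of 127. Its level in neutrophil barcodes was 10.4 CPM (24 h, 9 UMIs), 18.8 CPM (48 h, 25 UMIs) and 9.68 CPM (96 h, 2 UMIs), above the hepatocyte level of 4.75 CPM. In empty droplets of the 48 h library it had 36 UMIs or 3.18 CPM, close to the hepatocyte level. Per 1000 UMIs of the neutrophil gene S100a9 there were 44.6 Rpl3l UMIs in hepatocytes, 3.58 in empty droplets and 0.0996 in neutrophil barcodes at 48 h. After free RNA was subtracted the hepatocyte level was 4.77 CPM. The subtraction took only the mean content of an empty droplet (290.0 UMIs) from each cell and left 98.4 of 99 Rpl3l UMIs. It could therefore hardly change the level, and the part of RNA from other cells was not tested.

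Rpl10l and Rpl39l, both known from testis, were at or near 0. Rpl10l had no UMI in any library, which allows up to 3 in each, and Rpl39l had 1 in the adult control, 1 at 48 h and none elsewhere.

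Other barcodes of the same libraries differed widely in their share. Barcodes with T or NK markers had 27.4, 33.5, 35.5, 34.0 and 28.0% of non-mitochondrial UMIs in members in the adult control, at 24 h, 48 h, 96 h and P14. Barcodes with B cell markers had 21.8, 30.5, 30.5, 28.5 and 27.4%, those with endothelial markers 6.59, 8.43, 6.66, 10.2 and 11.9%, and those with neutrophil markers 5.38, 6.36, 4.26, 4.96 and 3.30%. Empty droplets had 6.81% in the adult control and 13.8, 12.5, 11.3 and 10.1% in the other libraries, in all 5 a larger share than in the hepatocytes of the same library. Barcodes with hepatocyte transcripts but under 5% mitochondrial UMIs had 9.06, 14.6, 13.8, 13.9 and 11.5%. The adult control was lowest of the 5 libraries in empty droplets, low-mitochondrial barcodes, B barcodes and T or NK barcodes, and in endothelial barcodes it was within counting error of 48 h. No free RNA was subtracted from these shares, and its amount differed between libraries. An empty droplet held a mean of 1328 UMIs in the control and 290.0 at 48 h. Median depths there were 6162 and 5953 UMIs in T or NK barcodes and 4504 and 3617 in B barcodes. The part of free RNA in the low shares of the control was not tested.

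**Figure D4:**
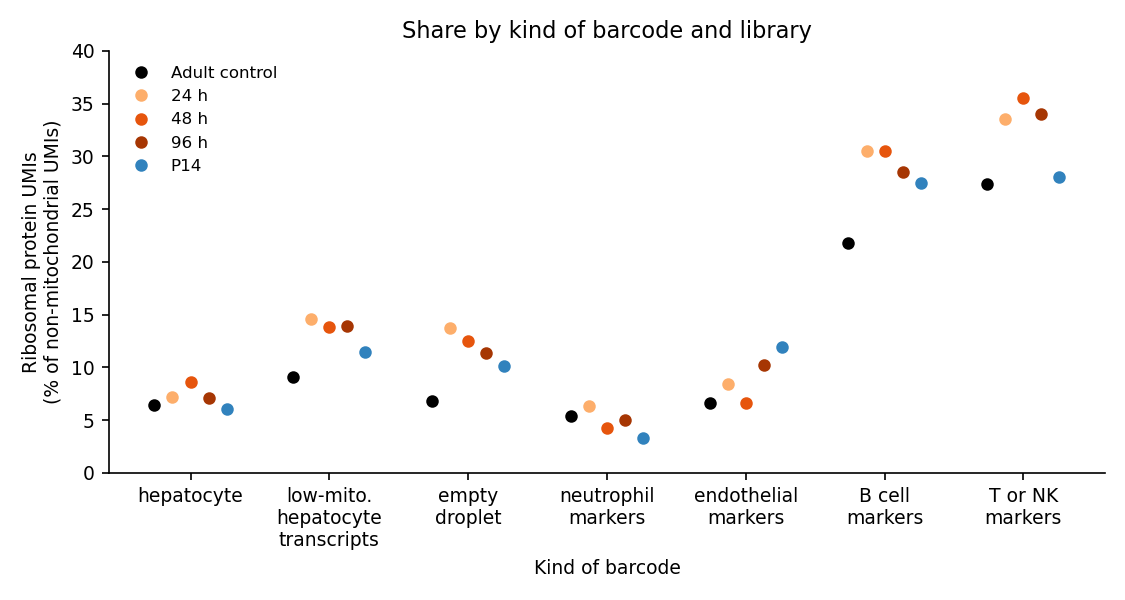
Share of non-mitochondrial UMIs in ribosomal protein genes (y axis, percent) for 7 kinds of barcode (x axis), with 1 point per library. In hepatocytes P14 is lowest and the 48 h library highest, though with the wider mitochondrial gate 96 h had 9.49% and 48 h 9.12%. The 48 h library is also highest in T or NK barcodes (35.5%) and, within counting error of 24 h, in B barcodes. P14 is also lowest in neutrophil barcodes (3.30%). In empty droplets the adult control is lowest (6.81%) and the 24 h library highest.

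The relation with coding length was not confined to hepatocytes. Over members, rho of the 24 h ratio with coding length was -0.79 in low-mitochondrial barcodes, -0.87 in T or NK, -0.84 in B, -0.62 in endothelial and -0.38 in neutrophil barcodes and -0.79 in empty droplets. At 48 h these values ran from -0.75 to -0.14 and at 96 h from -0.74 to -0.29. At P14 rho was -0.57 in empty droplets, -0.64 in low-mitochondrial and -0.27 in T or NK barcodes, and near 0 in B (0.07), neutrophil (-0.00) and endothelial barcodes (-0.06), as in hepatocytes (0.10). Members of up to 350 nt had median log2 ratios at 24 h of 0.68 in T or NK barcodes, 0.85 in B barcodes and 1.39 in empty droplets. In members of over 700 nt the kinds of barcode parted: the 24 h median was -0.47 in hepatocytes and 0.03 in T or NK, 0.13 in B and 0.47 in empty droplets. The adult control is part of each of these ratios and differs in its sample code. Without it, rho of the 48 h over 24 h ratio was 0.38 in low-mitochondrial, 0.47 in T or NK, 0.56 in B, 0.34 in neutrophil and 0.34 in endothelial barcodes and 0.59 in empty droplets, beside 0.70 in hepatocytes. With 1 library per group, a property of a library and the state of the animals cannot be told apart.

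**Figure D5:**
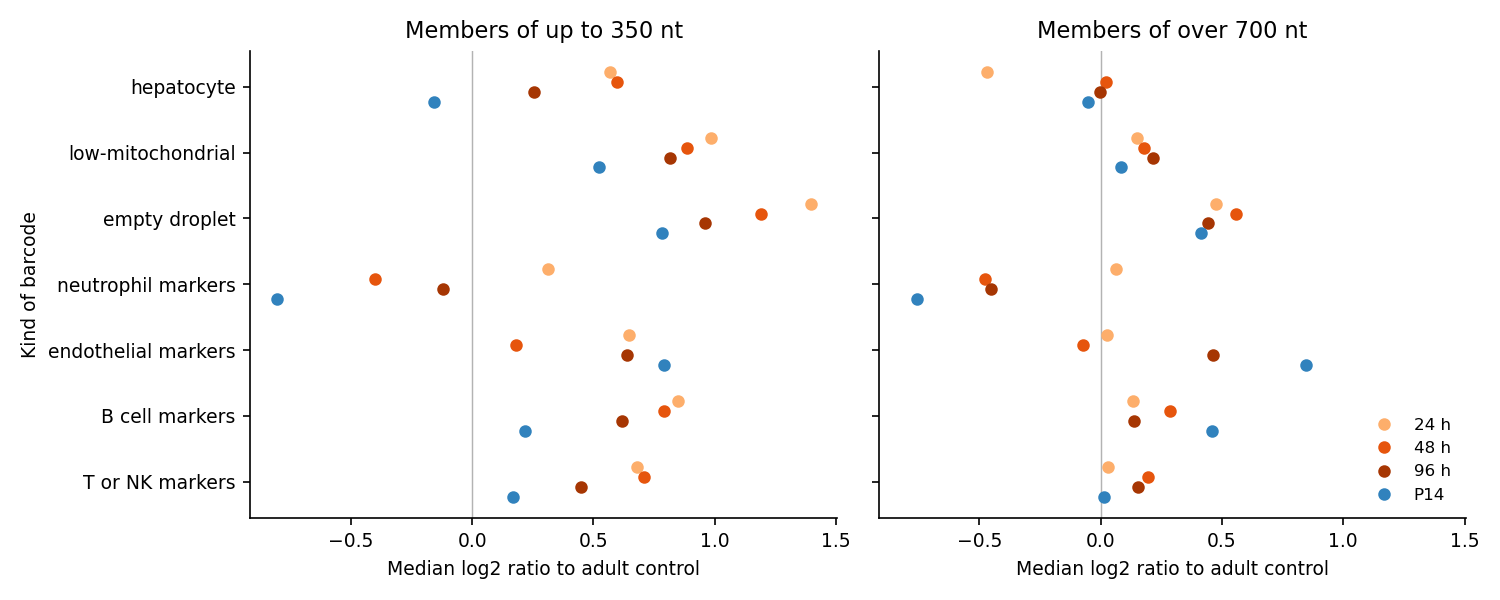
Median log2 ratio to the adult control (x axis) of members of up to 350 nt (left) and of over 700 nt (right) in 7 kinds of barcode (rows), coloured by library. Hepatocytes are the kind with the lowest 24 h value for long members (-0.47), and short members lie above 0 at 24 h in all 7 kinds.

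Other parts of the translation machinery were read from lists chosen with earlier results of these data known. Among cytosolic ribosomal proteins outside the symbol rule, Fau had 1123, 1164, 1124, 1076 and 1111 CPM in the adult control, at 24 h, 48 h, 96 h and P14, and Rack1 504.9, 376.6, 536.0, 491.5 and 425.2 CPM. Neither was past 1.5-fold in any library against the control.

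Mitochondrial ribosomal proteins moved more evenly. Of 78 listed genes 77 were tested, and their median log2 ratio was 0.38 at 24 h, 0.39 at 48 h, 0.47 at 96 h and 0.32 at P14. They were at least 1.5-fold higher in 21, 26, 22 and 25 cases, where 19.0, 17.4, 12.3 and 14.3% of all genes were, and lower in none after hepatectomy and 1 at P14, where 17.4, 19.6, 6.92 and 31.2% of all genes were. These shares of all genes are not matched for coding length. The 5 elongation factors had a median of -0.55 at 24 h and 0.10 at 48 h. Eef1a1, which brings aminoacyl tRNA to the ribosome, had 5018 CPM in the control and 2419, 2746, 3701 and 2793 in the other libraries, and Eef2, which moves the ribosome along, 1106 and 640.3, 576.4, 642.6 and 644.4 CPM. Both were highest in the control. Eef1b2, Eef1d and Eef1g were above their 24 h level at 48 h by log2 ratios of 0.66 to 0.75.

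Genes of ribosome assembly had their highest median at 24 h. Of 15 tested at 24 h, 6 were at least 1.5-fold higher and none lower (19.0 and 17.4% of all genes), with a median of 0.43, which was 0.20 at 48 h and 0.17 at 96 h. Nop58, a core protein of snoRNA particles that modify ribosomal RNA, had 11.7 CPM in the control, 79.2 (24 h), 62.9 (48 h), 28.4 (96 h) and 31.9 (P14). Nop56 had 7.66, 21.7, 18.3, 10.1 and 15.5 CPM and Nolc1 16.7, 38.6, 29.8, 22.2 and 16.9 CPM. These 3 genes were thus highest at 24 h and most members at 48 h. Other mRNAs known for a terminal oligopyrimidine tract had a median of -0.23 at 24 h and -0.13 at 48 h, with 3 of 10 higher (Btf3, Nap1l1 and Hnrnpa1) and 2 lower (Eif4b and Eif3f) at 24 h, near the 19.0 and 17.4% of all genes. A list of 12 genes made for control of translation of such mRNAs also holds the transcription factor Myc. Of these, 1 was higher and 4 were lower at 24 h, again beside 19.0 and 17.4% of all genes. Eif4e, the cap-binding factor, had 62.6 CPM in the control and 123.9 at 24 h, while Myc had 22.3 and 11.99 CPM. Larp1 had 159.0, 181.4, 161.3, 152.5 and 127.3 CPM.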

How the data were processed

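The deposited matrices hold whole-number UMI counts per gene and barcode, 31053 genes by 6794880 barcodes in each of 5 libraries, with 80927744 to 136110607 UMIs per library. Per the file headers, matrix software 3.0.2 wrote them, and per the submitters' processing notes the tools included bcl2fastq 2.17.1.14, Cell Ranger and Seurat 3.1 with build mm10. Whether multiply matching reads were counted is not given in the sources used here.

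For each library the UMI counts of all gated hepatocytes were added up and scaled to CPM, with UMIs of the 13 mitochondrial genes kept out of the denominator. Ratios were log2 of CPM + 1, for genes with at least 5 CPM in either library, and 1.5-fold was counted as higher or lower. With 1 library per group no test was run, and intervals are exact (Clopper-Pearson or Poisson, 95%) and cover counting error only. Doublets were not removed in the values given, and an alternative left out barcodes with 3 or more markers of another class. Empty droplets were barcode ranks 20001 to 60000, and barcodes of other classes had at least 1000 UMIs, 4 markers of 1 class and at most 1 of another. Coding lengths came from GENCODE M21 (GRCm38, the same assembly as mm10) and promoter windows from RefSeq.

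Named were the 5 members with most CPM in the control, the 5 highest and 5 lowest ratios per comparison among members with 50 CPM or more, the stalk proteins with Rpsa, and paralogs with the members they resemble. Other names were chosen after their values were seen. Some genes that the rule names are not reported here. Members and lists were chosen with earlier results of these data known. The length classes, the Rpl3l barcodes and the pyrimidine run within 5 bases were chosen after seeing the data. For each comparison 11 alternatives were run: CPM over all UMIs, TMM factors, another pseudocount, 2 filters, 3 gates, other-class barcodes left out, free RNA subtracted and cells weighted equally. Scripts were tested on simulated data. Python 3.11.15, numpy 2.4.6, scipy 1.17.1, pandas 2.3.3, R 4.3.3 and edgeR 4.0.16 were used.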

Additional observations from a re-analysis of the deposited data

Results flagged for a closer look

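In low-mitochondrial barcodes and in empty droplets, which lie outside the hepatocyte gate, the share of non-mitochondrial UMIs in ribosomal protein genes stood above the level of the adult control. Barcodes with hepatocyte transcripts and under 5% mitochondrial UMIs had 9.06% in the control, 14.62% (24 h), 13.78% (48 h), 13.89% (96 h) and 11.47% (P14). Empty droplets had 6.81% in the control, 13.76% (24 h), 12.49% (48 h), 11.34% (96 h) and 10.13% (P14). Mean depth per empty droplet was 1328 UMIs in the control and 290.0 to 794.8 in the other libraries. The part of depth and of the library in these values was not tested.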

How the results depend on the processing

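Over 66 medians from 11 alternatives, 43 moved by more than counting error in the summed member UMIs, 17 did not and 6 changed sign, and no test stands behind any of them. This yardstick is narrow and does not measure the uncertainty of a median over members. For 48 h over the control, a change from 0.334 to 0.338 after free RNA was subtracted counted as moved. Medians are given in the order P14, 24 h, 48 h and 96 h over the control, then 48 h over 24 h and 96 h over 48 h, for the comparisons that moved. CPM over all UMIs gave 0.0581 (sign changed), 0.0788 and 0.37, and -0.25 for 96 h over 48 h. TMM factors gave 0.31 (sign changed), 0.10, 0.42, 0.12, 0.32 and -0.31. A pseudocount of 10 CPM gave 0.33 for 48 h and 0.29 for 48 h over 24 h, and a filter of 50 CPM gave 0.32 for the latter. No filter gave -0.0527 for P14, 0.00038 for 24 h and 0.12 for 96 h. At 10000 UMIs or more the values were -0.0654, 0.0318, 0.31, 0.0972 and 0.28. At 10 to 20% mitochondrial UMIs they were -0.00864, 0.10, 0.38, 0.17, 0.24 and -0.21. Under 30% they were -0.0708, 0.23, 0.39, 0.52, 0.15 and 0.19 (sign changed). Without other-class barcodes P14 had -0.0377, 24 h 0.0286, 96 h 0.13 and 96 h over 48 h -0.20. Subtracting free RNA gave -0.0243, -0.0162 (sign changed), 0.34, 0.11, 0.38 and -0.25. Equal weights gave 0.0184 (sign changed), -0.0104 (sign changed), 0.30, 0.17, 0.36 and -0.15.

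Counts of members at least 1.5-fold higher at P14 were 3 with CPM over all UMIs, 11 with TMM, 2 at 10 to 20% mitochondrial UMIs, 0 under 30%, 2 without free RNA and 3 with equal weights. Under 30% they were 21 at 24 h, 32 at 96 h, 1 for 48 h over 24 h and 2 for 96 h over 48 h, where 17.5, 14.9, 5.05 and 13.4% of all genes were. Without free RNA 13 were higher for 48 h over 24 h, where 5.44% of all genes were. Counts at least 1.5-fold lower were 0 with TMM and 2 at 10 to 20% for P14. For 24 h they were 2 with TMM, 2 at 10 to 20%, 0 under 30% and 7 without free RNA. For 96 h over 48 h they were 14 with TMM and 2 under 30%, and for 96 h 1 without free RNA. The cause of these differences was not tested. At 48 h over the control the members' median stayed 0.35 to 0.52 above that of all genes in all settings run.

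The share of non-mitochondrial UMIs ran over the settings from 6.05 to 6.91% (control), 6.62 to 8.31% (24 h), 8.11 to 9.20% (48 h), 6.80 to 9.49% (96 h) and 5.93 to 6.54% (P14). With the gate under 30% the order of 48 h (9.12%) and 96 h (9.49%) turned. That gate took 48 h from 719 to 895 barcodes and 96 h from 771 to 1455. Cells at 10 to 20% mitochondrial UMIs numbered 53 at 96 h and 87 in the control, which limits those values. Leaving out other-class barcodes left 473 of 719 cells at 48 h. No paired analysis was possible because each group has 1 library and the replicate number only names it.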
